A study of Homo sapiens with 12 samples.

Results

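Mucin-type O-glycosylation was followed through 10 enzyme genes, chosen by name: the GALNT transferases GALNT1, GALNT2, GALNT3, GALNT4, GALNT6, GALNT7 and GALNT12, the core 1 synthase C1GALT1, its chaperone C1GALT1C1 and the sialyltransferase ST3GAL1. All 10 were among the 20015 genes of the deposited count table, and 9 of them passed the filter on low counts that left 11323 genes for testing. The exception was GALNT4, with 1 to 11 counts per library. RNA sequencing was done on HT29 cells, a human colorectal adenocarcinoma line, and every group expressed the Cas9 nuclease and had been transduced with a lentiviral guide RNA. The groups were QRICH1 KO Tm, WT Tm, QRICH1 KO DMSO and WT DMSO, with 3 libraries each, described in the series text as biological replicates. QRICH1 KO cells carried a guide against QRICH1, a transcriptional regulator studied in the endoplasmic reticulum (ER) stress response, and WT cells carried a non-targeting guide. Tm cells received tunicamycin at 0.3 µg/ml for 14 h, and DMSO cells received the solvent. The labels do not say whether the QRICH1 KO cells were a clone or a mixed population, so the spread between libraries does not cover differences between clones.

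Mucin-type O-glycosylation begins in the Golgi, where a GALNT enzyme joins N-acetylgalactosamine to a serine or threonine of a folded protein. C1GALT1 then adds galactose to form the core 1 structure, for which it needs the chaperone C1GALT1C1, and ST3GAL1 caps that galactose with sialic acid. Tunicamycin inhibits DPAGT1, the first enzyme of the dolichol-linked precursor of N-linked glycosylation, and the O-linked route does not use that precursor. In colon epithelium O-glycans cover the secreted and membrane-bound mucins that form the mucus barrier.

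Total counts were 6856736 to 17861844 per library, and a library with 0 counts for a gene could still hold it at up to 3 counts, or 0.168 to 0.438 counts per 1000000 (CPM). This floor covers counting error only. HSPA5, the ER chaperone induced by unfolded proteins, was 14.6-fold higher in QRICH1 KO Tm than in QRICH1 KO DMSO cells (adjusted p = 1.16e-12), and 25.8-fold higher in WT Tm than in WT DMSO cells (adjusted p = 8.26e-14). By genotype, HSPA5 was 1.69-fold lower in QRICH1 KO Tm than in WT Tm (adjusted p = 0.00484). Between QRICH1 KO DMSO and WT DMSO it was not called (adjusted p = 0.906). QRICH1 itself averaged 22.8 ± 3.84 CPM in QRICH1 KO Tm and 29.2 ± 3.04 CPM in WT Tm (SD, n = 3 each; adjusted p = 0.352). Without tunicamycin it averaged 24.1 ± 0.714 CPM in QRICH1 KO DMSO and 29.6 ± 6.26 CPM in WT DMSO (adjusted p = 0.577). The transcript was thus not called different by genotype, and read counts over the whole gene do not show whether the guide disrupted the protein. Of 12 epithelial markers 11 passed the filter, with KRT8 the highest. CDX1 did not pass, and CDX2 and TFF3 averaged 0.684 and 0.872 CPM over the 12 libraries. Of 24 markers of immune, vascular, stromal, glial and endocrine cells 4 passed (CD14, LYZ, LUM and ACTA2), and CD3E was at 0 in every library. CD14, LUM and ACTA2 averaged 1.56, 0.378 and 0.935 CPM, so passing the filter alone did not separate the lists. Libraries QRICH1 KO Tm 3 and QRICH1 KO DMSO 3 had counts for 14813 and 15340 genes, against 13124 to 14094 in the other libraries.

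ST3GAL1 was the most abundant of the 10 transcripts in all 4 groups. Scaled per kilobase of exon, its level was 33.1 ± 3.97 CPM per kilobase in QRICH1 KO Tm, 27.9 ± 2.53 in WT Tm, 29.5 ± 1.61 in QRICH1 KO DMSO and 27.7 ± 1.33 in WT DMSO (mean ± SD, n = 3 each). The gene lies on chromosome 8 at 133454848 to 133571940, minus strand (hg38 positions from GENCODE 29, here and below). On this scale GALNT3 and C1GALT1C1 followed, and their order differed between treatments. GALNT3 stood second in QRICH1 KO Tm and WT Tm, at 15.6 ± 0.448 and 17.5 ± 2.74 CPM per kilobase, with a range that overlapped that of C1GALT1C1 in both groups. C1GALT1C1 stood second in QRICH1 KO DMSO and WT DMSO, at 15.1 ± 1.5 and 14.9 ± 2.11 CPM per kilobase. Its range overlapped that of GALNT3 in QRICH1 KO DMSO, and lay above it in WT DMSO, where GALNT3 was at 12.2 ± 0.375 CPM per kilobase. This order rests on the division by exon length. In plain CPM, GALNT3 (group means 57.2 to 81.8) was above C1GALT1C1 (23.1 to 26.9) in every group. C1GALT1 (41.3 to 47.3 CPM) was above C1GALT1C1 as well.

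Per kilobase, C1GALT1 came next in every group, with means of 5.30 to 6.06 CPM per kilobase, followed by GALNT7 and then GALNT2. The ranges of C1GALT1 and GALNT7 overlapped in WT DMSO, and those of GALNT7 and GALNT2 overlapped in QRICH1 KO DMSO. GALNT1, GALNT6 and GALNT12 had means under 1 CPM per kilobase in every group, and neighbours in the order among them overlapped in both DMSO groups. In WT Tm the range of GALNT12 overlapped those of GALNT6 and GALNT4. GALNT4, on chromosome 12 at 89519408 to 89524806, was last by mean in every group. It was at 0.0317 CPM per kilobase in QRICH1 KO Tm, 0.0585 in WT Tm, 0.0811 in QRICH1 KO DMSO and 0.0719 in WT DMSO. Its exons share 93.2% of their bases with the read-through gene POC1B-GALNT4 on the same strand, so that reads of these genes could be split in counting. The protocol does not mark strand, and 21.1% of the exon bases of GALNT12 and 13.3% of those of GALNT2 lie under annotated antisense genes, whose reads could not be told apart from theirs. The same holds for 5.34% of the GALNT6 exon bases, under SLC4A8 on the other strand. In GALNT7 it holds for 5.74% under AC097534.1 and 1.43% under AC105285.1. No exon of GALNT1, GALNT3, C1GALT1, C1GALT1C1 or ST3GAL1 was shared with another annotated gene.

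**Figure D1:**
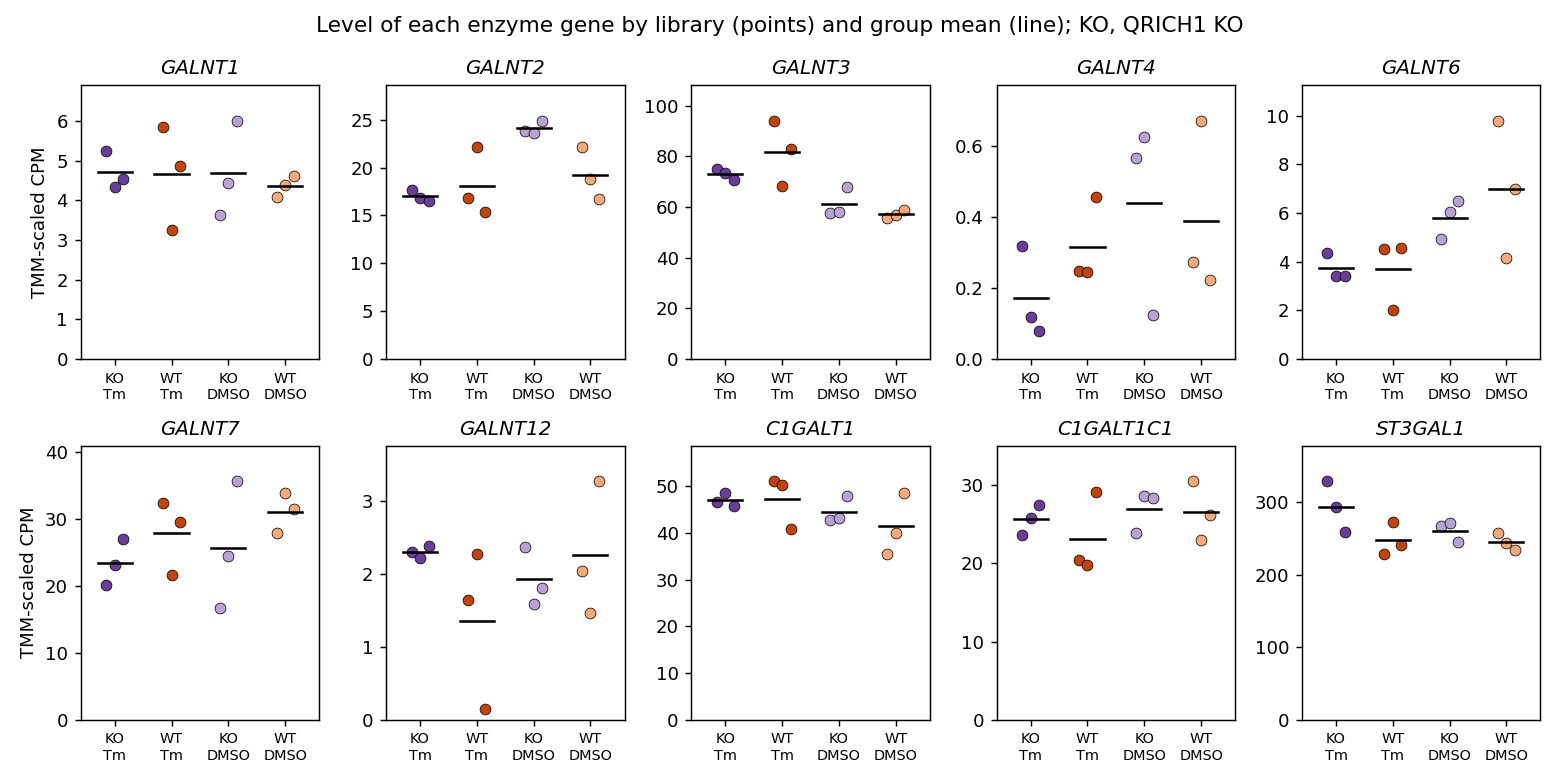
Level of each of the 10 enzyme genes in TMM-scaled CPM (vertical axis, starting at 0 and different for each gene) in QRICH1 KO Tm, WT Tm, QRICH1 KO DMSO and WT DMSO. Points are libraries and lines are group means of 3 libraries; GALNT3 lies above its DMSO libraries in both Tm groups, and GALNT2 is highest in QRICH1 KO DMSO.

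Promoter sequence was examined because the induced ER genes carry known stress elements. The ER stress response element (ERSE: CCAAT, 9 bases of any kind, then CCACG) and the shorter ERSE-II (ATTGG, 1 base, then CCACG) are bound by NF-Y at the CCAAT part together with ATF6. RefSeq windows (GRCh38.p14, 250 bases before to 50 after a start) were available for 7 of the 10 genes, in 9 windows. Searched on both strands, none of the 7 genes held ERSE, ERSE-II, the element TGACGTGG, the cyclic AMP element TGACGTCA or the ATF4-type element TTGCATCA. Among all 35116 windows these were present in 0.0769%, 0.0541%, 0.729%, 1.85% and 0.866%, and no match says only that these letters are not in these 9 windows. The CCAAT box alone, which is part of ERSE and also of other promoters, was found in 5 of the 7 genes and 5 of the 9 windows, and in 34.6% of all windows. The CCACG letters alone were found in 2 of the 7 genes and 2 of the 9 windows, and in 38.1% of all windows.
Shown are 2 of the windows with a CCAAT box and no CCACG at the ERSE spacing, each ending before the next exon in GENCODE 29. Below them stand the full elements of the ER genes HSPA5 and HERPUD1 for comparison. Capitals mark the CCAAT box (ATTGG on the other strand) and the CCACG part, and all are written 5′ to 3′ on the strand of the gene.
C1GALT1, chr7:7182294-7182543, plus strand: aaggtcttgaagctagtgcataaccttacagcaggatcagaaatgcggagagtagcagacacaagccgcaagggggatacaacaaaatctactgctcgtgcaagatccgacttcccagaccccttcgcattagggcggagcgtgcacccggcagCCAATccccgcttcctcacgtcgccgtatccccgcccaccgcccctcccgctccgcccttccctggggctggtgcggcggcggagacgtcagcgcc
GALNT2, chr1:230066988-230067208, plus strand: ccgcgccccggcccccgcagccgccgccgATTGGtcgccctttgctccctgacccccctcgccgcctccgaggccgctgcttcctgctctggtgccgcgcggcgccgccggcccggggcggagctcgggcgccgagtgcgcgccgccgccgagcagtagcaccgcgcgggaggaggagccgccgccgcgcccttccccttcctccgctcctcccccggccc
HSPA5 ERSE, chr9:125241391-125241409, minus strand: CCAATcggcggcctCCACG
HERPUD1 ERSE-II, chr16:56932025-56932035, plus strand: ATTGGgCCACG
Both longer stretches lie inside the annotated gene, since transcripts that start further upstream are annotated for C1GALT1 and GALNT2.

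Tunicamycin in WT cells left most of the enzyme genes without a call and raised 1 of the 9 tested, GALNT3. By comparison 12.6% of all tested genes were called higher and 11.1% called lower in WT Tm against WT DMSO. The median log2 fold change of the 9 genes was -0.07, against -0.02 over all genes tested. GALNT3, on chromosome 2 at 165747591 to 165794682 (minus strand), encodes a transferase best known for glycosylating the phosphate hormone FGF23. It stood at 94.1, 68.5 and 82.9 CPM in WT Tm libraries 1 to 3, against 55.5, 56.9 and 59.0 CPM in WT DMSO libraries 1 to 3. After TMM scaling every WT Tm library was above every WT DMSO library, with the widest spread among the WT Tm libraries. Without TMM scaling the groups overlapped, with WT Tm library 2 at 59.2 CPM and WT DMSO libraries 2 and 3 at 61.8 and 65.6 CPM. The means were 81.8 ± 12.8 CPM in WT Tm and 57.2 ± 1.76 CPM in WT DMSO (SD, n = 3 each), a 1.43-fold difference (log2 fold change 0.52, SE 0.122, adjusted p = 0.00433). GALNT3 alone among the 9 genes had groups that did not overlap, where 37.5% of all tested genes did not overlap (19% above and 18.5% below). In bulk libraries a change in the share of cells that express a gene and a change in RNA per cell cannot be told apart. The summed level of the 24 markers listed as non-epithelial, nearly all of it LYZ, was 1836 to 1929 CPM in WT Tm and 2302 to 2611 CPM in WT DMSO. LYZ was at 1832 to 2651 CPM over all libraries, while the immune markers PTPRC, CD68 and ITGAM averaged 0.0404, 0.0113 and 0.179 CPM. The LYZ level is therefore not read here as a sign of non-epithelial cells. The other 23 of the 24 markers summed to 3.49 to 4.26 CPM in WT Tm and 5.30 to 6.67 CPM in WT DMSO. The epithelial markers summed to 59190 to 76368 CPM in WT Tm and 65109 to 100012 CPM in WT DMSO. The part of these markers in the GALNT3 difference was not tested.

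GALNT6, a transferase close to GALNT3 in sequence, on chromosome 12 at 51351247 to 51392867, was lower on average without passing the threshold. It had 4.54, 2.03 and 4.56 CPM in WT Tm, against 9.80, 4.14 and 6.99 CPM in WT DMSO. WT DMSO library 2 lay below the higher WT Tm libraries, so the groups overlapped. Its estimated change was -0.90 on the log2 scale (SE 0.335, adjusted p = 0.0595, 95% interval -1.60 to -0.20). The call changed with the analysis: adjusted p was 0.0367 with DESeq2 and 0.0166 without the filter on low counts. It was 0.0176 without WT DMSO library 2, and ran up to 0.25 without another single library.

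The enzymes of the later steps did not pass the test in WT cells. C1GALT1, on chromosome 7 at 7156934 to 7248651, had 51.0, 50.1 and 40.7 CPM in WT Tm, against 35.5, 40.0 and 48.5 CPM in WT DMSO. The groups overlapped, with a log2 fold change of 0.19 (adjusted p = 0.313, 95% interval -0.08 to 0.47). C1GALT1C1, on chromosome X at 120625793 to 120630150, had 20.5, 19.8 and 29.2 CPM in WT Tm, against 30.5, 23.0 and 26.2 CPM in WT DMSO. WT Tm library 3 was within the WT DMSO range, and the log2 fold change was -0.21 (adjusted p = 0.409). ST3GAL1 had 229, 272 and 241 CPM in WT Tm, against 257, 243 and 234 CPM in WT DMSO. These libraries lay in the same range, and the log2 fold change of 0.01 had a 95% interval of -0.22 to 0.25 (adjusted p = 0.947).

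The remaining GALNT genes also overlapped between WT Tm and WT DMSO. GALNT2, a broadly acting transferase on chromosome 1 at 230057990 to 230282124, had 16.8, 22.1 and 15.4 CPM in WT Tm, against 22.2, 18.8 and 16.7 CPM in WT DMSO (log2 fold change -0.07, adjusted p = 0.802). GALNT7, which acts on peptides that already carry a sugar and lies on chromosome 4 at 173168753 to 173323967, had 32.4, 21.7 and 29.6 CPM in WT Tm, against 27.9, 33.9 and 31.5 CPM in WT DMSO (log2 fold change -0.16, adjusted p = 0.65). In both genes the spread within a group was larger than the difference between the groups. GALNT1, another broadly acting transferase, on chromosome 18 at 35581117 to 35711834, had 5.86, 3.25 and 4.86 CPM in WT Tm, against 4.08, 4.38 and 4.61 CPM in WT DMSO. GALNT12, expressed mainly in the digestive tract and located on chromosome 9 at 98807699 to 98850081, had 1.65, 2.28 and 0.152 CPM in WT Tm, against 2.04, 1.46 and 3.27 CPM in WT DMSO. The lowest of these GALNT12 values rests on 1 count. Neither passed the test, with log2 fold changes of 0.08 for GALNT1 (adjusted p = 0.869) and -0.61 for GALNT12 (adjusted p = 0.424). For 7 of the 9 genes the 95% interval of the log2 fold change lay inside a 2-fold change in either direction, and for GALNT6 and GALNT12 it did not.

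In QRICH1 KO cells tunicamycin lowered 1 of the 9 tested genes, GALNT2, and raised none by the same test. Of all tested genes 6.53% were called lower and 9.09% called higher in QRICH1 KO Tm against QRICH1 KO DMSO. The median log2 fold change was 0.01 over the 9 genes and -0.00 over all genes tested. GALNT2 had 17.7, 16.9 and 16.5 CPM in QRICH1 KO Tm, against 23.8, 23.6 and 24.9 CPM in QRICH1 KO DMSO. All QRICH1 KO Tm libraries lay below all QRICH1 KO DMSO libraries, and the libraries of each group were close together. The means were 17.0 ± 0.624 CPM in QRICH1 KO Tm and 24.1 ± 0.686 CPM in QRICH1 KO DMSO (SD, n = 3 each), a 1.42-fold lower level (log2 fold change -0.50, SE 0.155, adjusted p = 0.0348). The call was lost whichever of the 6 libraries was left out, with adjusted p of 0.062 to 0.103 and log2 fold changes of -0.53 to -0.48. Without both QRICH1 KO libraries 3, which had counts for more genes than the others, the log2 fold change was -0.46 (adjusted p = 0.161), while in the remaining settings with all libraries the call was kept.

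GALNT3 in QRICH1 KO cells had 74.9, 73.3 and 70.7 CPM with Tm, against 57.5, 57.9 and 68.1 CPM with DMSO. After TMM scaling the Tm libraries lay above the DMSO libraries, and QRICH1 KO DMSO library 3 came within 3 CPM of the lowest of them. Without TMM scaling, QRICH1 KO DMSO library 3 (76.2 CPM) lay above all QRICH1 KO Tm libraries (69.1 to 72.1 CPM). The GALNT3 change of 0.25 (log2) did not pass the test (SE 0.121, adjusted p = 0.174, 95% interval 0.00 to 0.51). GALNT6 had 4.36, 3.40 and 3.42 CPM in QRICH1 KO Tm, against 4.92, 6.03 and 6.51 CPM in QRICH1 KO DMSO. Here the groups did not overlap, and the estimate was -0.63 on the log2 scale (SE 0.325, adjusted p = 0.212). In all, 3 of the 9 genes (GALNT2, GALNT3 and GALNT6) did not overlap between QRICH1 KO Tm and QRICH1 KO DMSO, against 32.4% of all tested genes.

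The other 6 tested genes overlapped between treatments in QRICH1 KO cells. C1GALT1 had 46.5, 48.5 and 45.8 CPM in QRICH1 KO Tm, against 42.7, 43.1 and 47.8 CPM in QRICH1 KO DMSO (log2 fold change 0.07, adjusted p = 0.757). C1GALT1C1 had 23.6, 25.8 and 27.4 CPM in QRICH1 KO Tm, against 23.9, 28.6 and 28.3 CPM in QRICH1 KO DMSO (log2 fold change -0.07, adjusted p = 0.818). The synthase and its chaperone were thus within the spread of their libraries. ST3GAL1 had 328, 294 and 258 CPM in QRICH1 KO Tm, against 267, 271 and 244 CPM in QRICH1 KO DMSO. QRICH1 KO Tm libraries 1 and 2 were the highest of the 12 libraries, and library 3 was within the DMSO range (log2 fold change 0.17, adjusted p = 0.332). GALNT7 was the most variable, with 20.2, 23.2 and 27.1 CPM in QRICH1 KO Tm, against 16.7, 24.5 and 35.7 CPM in QRICH1 KO DMSO (log2 fold change -0.13, adjusted p = 0.757). GALNT1 averaged 4.70 ± 0.474 CPM in QRICH1 KO Tm and 4.69 ± 1.21 CPM in QRICH1 KO DMSO (SD, n = 3 each; adjusted p = 0.985). GALNT12 averaged 2.30 ± 0.0812 CPM in QRICH1 KO Tm and 1.93 ± 0.402 CPM in QRICH1 KO DMSO (adjusted p = 0.777).

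**Figure D2:**
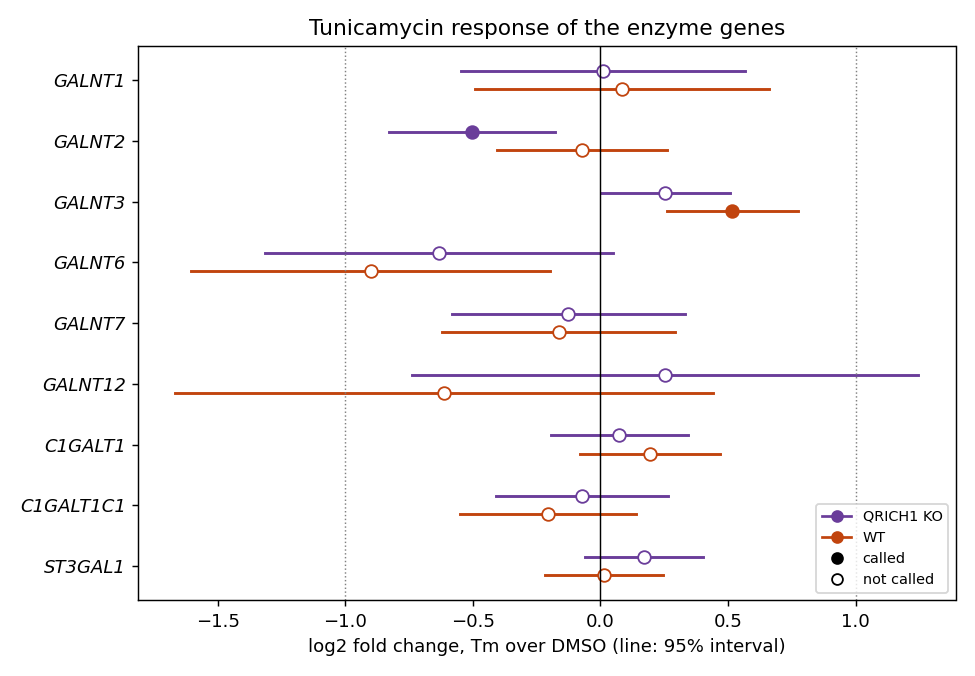
Log2 fold change of Tm over DMSO for the 9 tested enzyme genes (horizontal axis), in QRICH1 KO (upper line of each gene) and WT cells. Points are edgeR estimates, filled where the adjusted p was under 0.05, lines are 95% intervals, and the dotted lines stand at a 2-fold change; GALNT3 is filled in WT at 0.52 and GALNT2 in QRICH1 KO at -0.50.

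The genotype comparisons asked whether QRICH1 loss altered these levels within a treatment. None of the 9 tested genes was called in QRICH1 KO Tm against WT Tm, where 1.17% of all tested genes were called (0.406% higher and 0.76% lower). The smallest unadjusted p among them was that of ST3GAL1, which averaged 293 ± 35.2 CPM in QRICH1 KO Tm and 247 ± 22.4 CPM in WT Tm (SD, n = 3 each). The log2 fold change was 0.25 (SE 0.110, adjusted p = 0.348, 95% interval 0.01 to 0.48), and the groups overlapped. GALNT3 averaged 73.0 ± 2.10 CPM in QRICH1 KO Tm and 81.8 ± 12.8 CPM in WT Tm (log2 fold change -0.17, adjusted p = 0.614). No gene of the 9 had groups apart in this comparison, where 18.5% of all tested genes did (9.41% above and 9.06% below). For 8 of the 9 genes the 95% interval lay inside a 2-fold change. At an unadjusted p under 0.05 the count was 1 of 9, against 13.4% of all tested genes, and DESeq2 called none of the 9.

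Without tunicamycin none of the 9 was called between QRICH1 KO DMSO and WT DMSO, where 0.0177% of all tested genes were called higher and 0.0795% lower. GALNT2 averaged 24.1 ± 0.686 CPM in QRICH1 KO DMSO and 19.2 ± 2.74 CPM in WT DMSO (SD, n = 3 each). Its QRICH1 KO DMSO libraries all lay above its WT DMSO libraries, the only such case among the 9 genes, where 13.5% of all tested genes did not overlap (7.4% above and 6.09% below). The log2 fold change was 0.33 (SE 0.154, adjusted p = 0.536, 95% interval 0.01 to 0.66). It was the only gene of the 9 at an unadjusted p under 0.05, against 9.07% of all tested genes, and DESeq2 called none of the 9.

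The difference between the Tm responses was tested as an interaction, QRICH1 KO response less WT response. None of the 9 genes passed, nor did any of the 11323 genes tested (0% called in either direction by edgeR, with 774 genes at an unadjusted p under 0.05). Without the filter on low counts edgeR called 12 genes higher and 32 lower, none of them among the 9. DESeq2 called 9 genes higher and 33 lower, none of them among the 9. GALNT2 had an interaction of -0.43 on the log2 scale (SE 0.222, adjusted p = 0.741, 95% interval -0.90 to 0.03). GALNT3 had an interaction of -0.26 (SE 0.171, adjusted p = 0.836, 95% interval -0.62 to 0.10). The WT call of GALNT3 and the QRICH1 KO call of GALNT2 were therefore not shown to differ between genotypes, and neither were they shown to be alike.

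The makeup of the GALNT pool was described from CPM per kilobase, without a test. GALNT3 made up 66.6 ± 1.56% of the summed level of the 7 GALNT genes in QRICH1 KO Tm, 67.6 ± 1.84% in WT Tm, 58.7 ± 2.33% in QRICH1 KO DMSO and 55.9 ± 0.952% in WT DMSO (SD, n = 3 each). By library the share was 64.8 to 67.7% in QRICH1 KO Tm and 56.8 to 61.3% in QRICH1 KO DMSO. It was 65.5 to 68.8% in WT Tm and 54.8 to 56.5% in WT DMSO. Every Tm library was above every DMSO library of its own genotype. A share moves with the rest of the sum as well as with GALNT3. The sum of the 7 genes was 23.4 ± 0.204 CPM per kilobase in QRICH1 KO Tm and 22.3 ± 2.93 in QRICH1 KO DMSO. It was 25.8 ± 3.50 CPM per kilobase in WT Tm and 21.8 ± 0.411 in WT DMSO. GALNT7 was the next largest part, with 14.6 ± 2.25% in QRICH1 KO Tm, 15.7 ± 1.37% in WT Tm, 16.4 ± 4.07% in QRICH1 KO DMSO and 20.8 ± 2.08% in WT DMSO. Counted over all 11 GALNT genes that were tested or listed, the GALNT3 share was 45.2 to 46.4% in QRICH1 KO Tm and 33.8 to 36.9% in QRICH1 KO DMSO. On the same base it was 45.1 to 51.4% in WT Tm and 35.1 to 35.2% in WT DMSO. Without division by length, the mean GALNT3 share of the 7 genes was 58.7% in QRICH1 KO Tm and 49.6% in QRICH1 KO DMSO. In WT cells that share was 59.2% with Tm and 47.0% with DMSO.

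**Figure D3:**
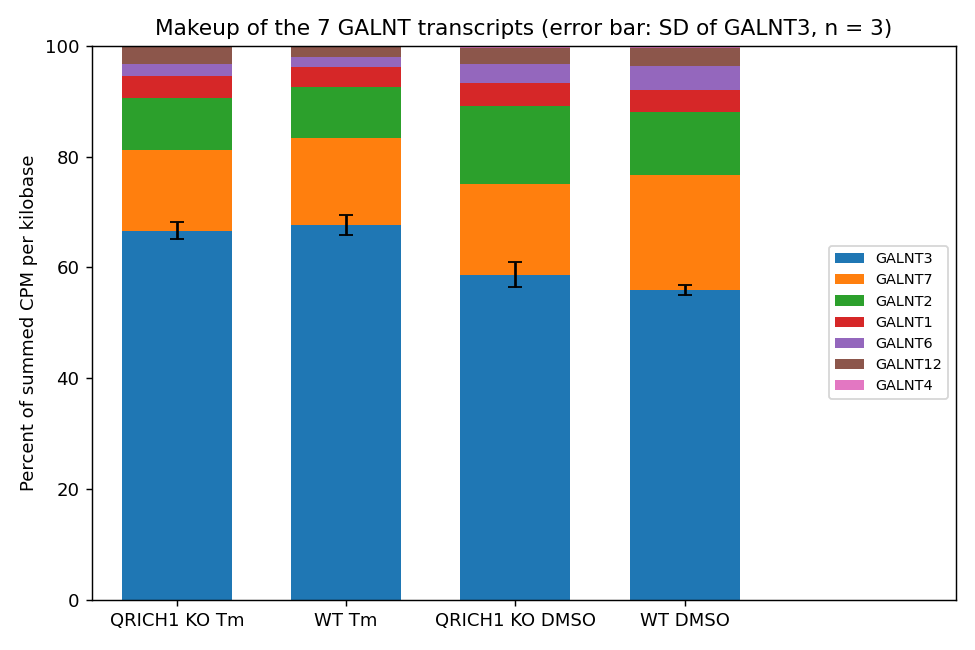
Percent of the summed CPM per kilobase of the 7 listed GALNT genes taken by each (vertical axis, from 0), as means of 3 libraries in QRICH1 KO Tm, WT Tm, QRICH1 KO DMSO and WT DMSO. The error bar is the SD of the GALNT3 share, which is 66.6% in QRICH1 KO Tm, 67.6% in WT Tm, 58.7% in QRICH1 KO DMSO and 55.9% in WT DMSO.

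Transcripts most like the called genes across the 12 libraries were found by the root-mean-square difference of centred log2 CPM, among 6944 genes with a mean of at least 10 CPM. For GALNT3 they were SLC35F5 (0.0923) and AGAP1 (0.0992). For GALNT2 they were CLDN4 (0.0846) and LRWD1 (0.0971).

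Other GALNT transferases, of which 4 of 13 passed the filter, gave no higher call under tunicamycin in either genotype. Over all tested genes 12.6% were called higher and 11.1% lower in WT Tm, and 9.09% and 6.53% in QRICH1 KO Tm. In WT Tm 2 of the 4 were called lower. GALNT10 averaged 5.14 ± 0.254 CPM in WT Tm and 10.1 ± 1.86 CPM in WT DMSO (SD, n = 3 each), 1.97-fold lower (adjusted p = 0.0029). In QRICH1 KO cells GALNT10 averaged 7.20 ± 1.68 CPM with Tm and 6.74 ± 0.505 CPM with DMSO (log2 fold change 0.08, adjusted p = 0.843), and its interaction was 1.06 on the log2 scale (adjusted p = 0.368). GALNT11, which glycosylates among others the receptor Notch1 in frogs, averaged 20.4 ± 2.61 CPM in WT Tm and 31.8 ± 2.08 CPM in WT DMSO, 1.57-fold lower (adjusted p = 0.00282). In QRICH1 KO Tm 2 of the 4 were called lower, GALNT11 at 1.47-fold (adjusted p = 0.0124) and GALNT14 at 1.33-fold (adjusted p = 0.0319), the second named after its value was seen. The median log2 fold change of the 4 genes was -0.49 in QRICH1 KO cells and -0.75 in WT cells.

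Enzymes that extend the O-glycan beyond core 1 were called in both directions. Of 8 tested genes of core branching and extension, 2 were called higher and 1 lower in each genotype. Shares over all tested genes were 9.09% higher and 6.53% lower in QRICH1 KO Tm, and 12.6% and 11.1% in WT Tm. GCNT3, which builds branched cores in mucin-secreting tissue, averaged 1656 ± 129.5 CPM in QRICH1 KO Tm and 860 ± 48.3 CPM in QRICH1 KO DMSO (SD, n = 3 each), 1.93-fold higher (adjusted p = 1.86e-06). It averaged 1491 ± 55.6 CPM in WT Tm and 752 ± 7.41 CPM in WT DMSO, 1.98-fold higher (adjusted p = 6.29e-07). B4GALT1, a galactosyltransferase of chain extension, was 1.31-fold higher in QRICH1 KO Tm (adjusted p = 0.0185) and 1.58-fold higher in WT Tm (adjusted p = 0.000201). B3GNT2, which adds N-acetylglucosamine to extending chains, was 1.46-fold lower in WT Tm (adjusted p = 0.0444), and its log2 fold change in QRICH1 KO Tm was -0.50 (adjusted p = 0.0806). The lower call in QRICH1 KO was C1GALT1C1L, a copy related to C1GALT1C1 with a mean of 0.713 CPM over the 12 libraries (adjusted p = 0.0489), named after its value was seen.

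Among 9 tested sialyl- and fucosyltransferases, 3 were called higher and 1 lower in QRICH1 KO Tm, and 3 higher and 2 lower in WT Tm. Corresponding shares of all tested genes were 9.09% higher and 6.53% lower in QRICH1 KO Tm, and 12.6% and 11.1% in WT Tm. FUT3, the Lewis fucosyltransferase, averaged 22 ± 3.08 CPM in QRICH1 KO Tm and 4.90 ± 1.65 CPM in QRICH1 KO DMSO (SD, n = 3 each), 4.47-fold higher (adjusted p = 1.04e-06). It averaged 36.6 ± 2.60 CPM in WT Tm and 5.19 ± 1.39 CPM in WT DMSO, 6.84-fold higher (adjusted p = 2.77e-08). FUT3 is close in sequence to FUT5 and FUT6, so its counts may be shared with them. FUT6 did not pass the filter, with 37 counts in total over the 12 libraries (mean 0.253 CPM). ST6GALNAC4, which adds sialic acid to the N-acetylgalactosamine of core 1, was 2.65-fold higher in QRICH1 KO Tm (adjusted p = 1.17e-05) and 4.10-fold higher in WT Tm (adjusted p = 8.33e-08). FUT1, which makes the H antigen, was 1.89-fold higher in QRICH1 KO Tm (adjusted p = 0.0022) and 1.83-fold higher in WT Tm (adjusted p = 0.00193). ST3GAL2, a relative of ST3GAL1, was 1.93-fold lower in WT Tm (adjusted p = 0.00613), and its log2 fold change in QRICH1 KO Tm was -0.36 (adjusted p = 0.311). ST3GAL4, another member of that family and named after its values were seen, was 1.34-fold lower in QRICH1 KO Tm (adjusted p = 0.0429) and 1.57-fold lower in WT Tm (adjusted p = 0.00211). ST3GAL1 itself was not called in either genotype, as given above.

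The supply of nucleotide sugars, which both glycosylation routes draw on, was tested over 14 genes. In QRICH1 KO Tm 4 were called higher and 1 lower, and in WT Tm 5 were called higher and none lower. All tested genes gave 9.09% higher and 6.53% lower in QRICH1 KO Tm, and 12.6% and 11.1% in WT Tm. UAP1, which makes UDP-N-acetylglucosamine, was 2.63-fold higher in QRICH1 KO Tm (adjusted p = 8.95e-08) and 2.95-fold higher in WT Tm (adjusted p = 1.35e-08). GALK2, a kinase of N-acetylgalactosamine, was 2.32-fold higher in QRICH1 KO Tm (adjusted p = 2.23e-06) and 2.79-fold higher in WT Tm (adjusted p = 1.2e-07). NANS, the sialic acid synthase, was 2.08-fold higher in QRICH1 KO Tm (adjusted p = 3.56e-05) and 2.53-fold higher in WT Tm (adjusted p = 1.44e-06). SLC35A2, the UDP-galactose transporter of the Golgi, was 1.57-fold higher in WT Tm (adjusted p = 0.00012), and its log2 fold change in QRICH1 KO Tm was 0.30 (adjusted p = 0.0574). GALK1, the lower call in QRICH1 KO Tm, was named after its value was seen and was 1.67-fold lower there (adjusted p = 0.0294).

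Of 13 mucins, the main carriers of these glycans, 5 passed the filter. MUC16 was the only one called, 2.03-fold lower in QRICH1 KO Tm (adjusted p = 0.00798) and 2.63-fold lower in WT Tm (adjusted p = 0.000468). It averaged 5.28 ± 1.49 CPM in QRICH1 KO Tm and 10.6 ± 2.17 CPM in QRICH1 KO DMSO (SD, n = 3 each). It averaged 4.80 ± 1.45 CPM in WT Tm and 12.3 ± 0.613 CPM in WT DMSO. MUC2, the main secreted mucin of the colon, had a mean of 1.59 CPM over the 12 libraries and was not called. Lower calls made up 6.53% of all tested genes in QRICH1 KO Tm and 11.1% in WT Tm.

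Routes outside the Golgi were taken for comparison. The list of O-linked sugars added in the ER held 15 genes, for O-fucose, O-glucose, O-mannose and, with EOGT, O-linked N-acetylglucosamine. Of these, 1 was called higher and none lower in QRICH1 KO Tm, and none higher and 2 lower in WT Tm. The higher call was B3GALNT2, an enzyme of O-mannose extension named after its value was seen (log2 fold change 0.52, adjusted p = 0.0254). The pair called lower was POMK, the O-mannose kinase, at 1.70-fold (adjusted p = 0.00769) and TMTC4, an O-mannosyltransferase for cadherins, at 1.57-fold (adjusted p = 0.0083). In QRICH1 KO Tm the log2 fold change of POMK was 0.20 (adjusted p = 0.534) and that of TMTC4 was -0.40 (adjusted p = 0.118). The interaction of POMK was 0.96 on the log2 scale (adjusted p = 0.368). Of 23 genes of the N-glycan precursor, the route that tunicamycin blocks, 8 were called higher and none lower in QRICH1 KO Tm, and 10 higher and 2 lower in WT Tm. Beside both lists, all tested genes gave 9.09% higher and 6.53% lower in QRICH1 KO Tm, and 12.6% and 11.1% in WT Tm. ALG5, which makes dolichol-phosphate-glucose, was 2.21-fold higher in QRICH1 KO Tm (adjusted p = 8.21e-07) and 3.18-fold higher in WT Tm (adjusted p = 3.35e-09). ALG2, a mannosyltransferase, was 2.25-fold higher in QRICH1 KO Tm (adjusted p = 2.81e-07) and 2.86-fold higher in WT Tm (adjusted p = 6.04e-09). NUS1, a subunit of the dolichol-making enzyme, was 2.20-fold higher in QRICH1 KO Tm (adjusted p = 0.000908) and 2.61-fold higher in WT Tm (adjusted p = 0.000105). ALG14, which acts just after DPAGT1, was 1.69-fold higher in QRICH1 KO Tm (adjusted p = 0.0076) and 2.08-fold higher in WT Tm (adjusted p = 0.000325). DPAGT1, named as the target of the drug after its values were seen, was 1.39-fold higher in QRICH1 KO Tm (adjusted p = 0.0079) and 1.67-fold higher in WT Tm (adjusted p = 9.45e-05). The median log2 fold change of the N-glycan precursor genes was 0.19 in QRICH1 KO and 0.36 in WT cells, and that of the 9 O-glycosylation genes was 0.01 in QRICH1 KO and -0.07 in WT cells. No gene of any of these 7 lists was called between genotypes or in the interaction.

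**Figure D4:**
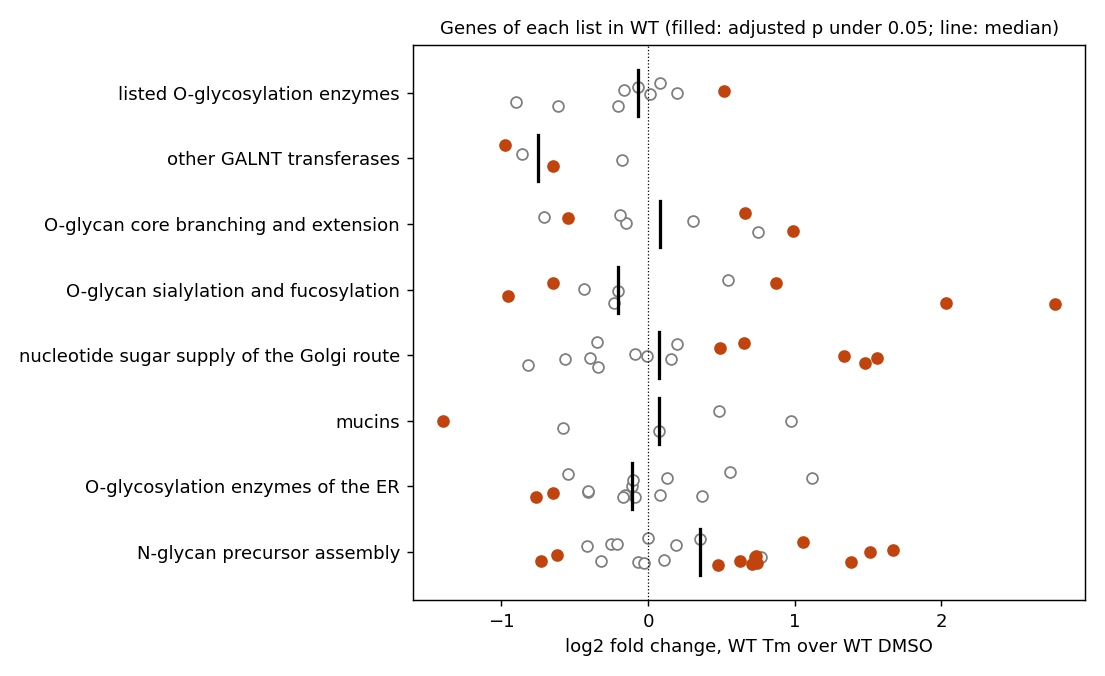
Log2 fold change of WT Tm over WT DMSO (horizontal axis) for every tested gene of the 10 listed enzymes and the 7 comparison lists (rows). Points are genes, filled where the adjusted p was under 0.05, and bars are list medians, which run between -0.75 for the other GALNT transferases and 0.36 for N-glycan precursor assembly.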

How the data were processed

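Read counts per gene of the 12 libraries came from 1 table of whole numbers that the authors deposited without normalization. RNA was copied by a modified Smart-seq2 method and tagmented with Nextera XT, per the labels' protocols; this chemistry keeps no strand and adds no molecular identifiers, so PCR copies count as reads. Trimmomatic, STAR, DESeq2 and build hg38 are named without versions, per the submitters' processing notes; for the counting tool and its settings nothing is stated in the labels or the file. Gene names and exon lengths came from GENCODE 29, matched by ID without its version for 19972 of 20015 genes, and promoters from RefSeq.

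Groups were taken from the sample titles. Library pairs within a group differed by 8.64 to 35.8 times sampling noise (chi-square per degree of freedom), so all were kept as separate samples. After TMM scaling, edgeR 4.0.16 (R 4.3.3) gave the tests (quasi-likelihood, filterByExpr with a minimum count of 10, 4 group means over the 12 libraries, common biological coefficient of variation 0.155). Adjusted p-values are two-sided, by Benjamini-Hochberg over 11323 genes, with calls under 0.05, and CPM values are per 1000000 counts after TMM scaling. Alternatives were DESeq2 1.42.0, other size factors, no filter, only the groups compared, a replicate block and leaving out libraries. The 10 genes and the lists were chosen with earlier results of these data known. Named were all 10 genes, up to 4 called genes with the largest change in WT per list (mean of at least 1 CPM), and the 2 most alike transcripts per called gene. Each p-value sets a difference between groups against the spread between libraries, estimated with help from all tested genes and the 4 groups together. The series text calls these libraries biological replicates. One gene of the nucleotide sugar list is not reported here by name.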

Additional observations from a re-analysis of the deposited data

How the results depend on the processing

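Of 576 values of the enzyme genes' log2 fold changes under other settings, 529 kept direction and side of the threshold, 36 changed sign (0 of them called in the first place), 7 lost and 4 gained a call. The GALNT3 call in WT was kept in all 6 fits without a library (log2 fold change 0.41 to 0.63) and in 5 other settings. One gene, GALNT6, became a lower call in WT with DESeq2, without the filter and with the replicate block (count 1 each). Of 18 pairs of same-numbered libraries 6 deviated together with a correlation over 0.1 (range -0.186 to 0.265), all numbered 1 or 3 and none in WT Tm, and 8 matched their own number best. This was short of every pair, so the numbers were not taken as pairing; under the block 4 genes were higher in QRICH1 KO DMSO than in WT DMSO. DESeq2 gave 90 higher and 199 lower genes in QRICH1 KO Tm against WT Tm, 25 and 36 under DMSO, and 9 and 33 for the interaction. Without the filter these were 126 and 153, 76 and 62, and 12 and 32. With only the groups compared, 4 genes were lower under DMSO. Without both QRICH1 KO libraries 3 (chosen after seeing the data), 469 genes and 0 enzyme genes were lower in QRICH1 KO Tm against QRICH1 KO DMSO, and 40 genes were higher and 19 lower under DMSO; signs changed for GALNT7 in the QRICH1 KO Tm response (0.067), for GALNT1 (-0.14), GALNT3 (-0.0013) and C1GALT1C1 (-0.022) under DMSO, and for GALNT1 in the interaction (0.19). The causes were not tested.

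Leaving out 1 library at a time gave these ranges. Enzyme genes called lower numbered 0 to 1 in WT Tm and 0 to 0 in QRICH1 KO Tm. Genes called lower in QRICH1 KO Tm against QRICH1 KO DMSO numbered 389 to 759. Between genotypes 13 to 29 were higher and 35 to 49 lower under Tm, 2 to 26 higher and 3 to 13 lower under DMSO, and 0 to 4 lower in the interaction. Signs changed, in log2 fold changes, for GALNT1 (-0.13 to 0.30), GALNT2 (-0.25 to 0.035) and ST3GAL1 (-0.064 to 0.083) in WT Tm, and for GALNT1 (-0.15 to 0.23) and GALNT7 (-0.36 to 0.19) in QRICH1 KO Tm. Under Tm between genotypes they changed for GALNT1 (-0.20 to 0.23), GALNT2 (-0.20 to 0.072), GALNT6 (-0.28 to 0.24) and C1GALT1 (-0.11 to 0.023). Under DMSO they changed for GALNT1 (-0.12 to 0.25), GALNT6 (-0.51 to 0.068), GALNT12 (-0.49 to 0.18) and C1GALT1C1 (-0.069 to 0.13). In the interaction they changed for GALNT1 (-0.29 to 0.15), GALNT6 (-0.049 to 0.55) and GALNT7 (-0.19 to 0.35). Counts were low for GALNT4, at 1 to 11 a library, and for GALNT12 in WT Tm library 3, at 1. WT Tm libraries 1 and 2 had 20 and 28 counts for GALNT12. The part of depth in these low counts was not tested.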
